A study of Mus musculus with 6 samples.

Results

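Amino acids and small peptides released from food cross the duodenal epithelium through carriers of the solute carrier (SLC) families, and the genes of 8 of these families are described here: SLC1, SLC3, SLC6, SLC7, SLC15, SLC36, SLC38 and SLC43. They were chosen by symbol alone, as every row whose name begins with one of these families, apart from the serotonin transporter Slc6a4. This gave 66 of the 23699 gene rows. Of the 66, 65 are carriers or their partner chains, and Slc7a6os is a gene on the opposite strand beside Slc7a6 that shares only the start of its name. All 66 are protein coding in the annotation used for positions (GENCODE M1, mouse build mm9).

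RNA was sequenced from the duodenum of adult mice of 6 weeks on a mixed strain background, with 3 control and 3 mutant animals and 1 library each. Control 1 and control 2 carried Nkx2.2flox/+ with the Rosa26Tomato/+ reporter, and control 3 carried Nkx2.2flox/+ without it. The 3 mutants carried Nkx2.2flox/TN with Villin-Cre/+ and Rosa26Tomato/+. Every animal therefore had a floxed Nkx2.2 allele. Nkx2.2 is a homeobox transcription factor of enteroendocrine cells, TN is the study's name for an allele with a changed tinman domain, and Villin-Cre deletes floxed DNA in intestinal epithelium. The comparison asks how the duodenum differs when the TN allele is the copy left in the epithelium. Cre, the count of Nkx2.2 copies and the TN allele of other tissues separate the groups too, and these cannot be told apart.

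The dissected piece was the first 2 cm after the stomach, taken as whole wall. Enterocyte markers were abundant in each library, with the FPKM of Vil1, Alpi, Fabp1, Fabp2, Sis, Lct, Apoa1, Apoa4, Cdx2 and Krt20 adding up to between 19871 and 31417 in controls and between 22628 and 32052 in mutants. FPKM relates the fragments of a gene to its transcript length and to the depth of the library, so levels can be compared between genes. Depth, read from the deposited confidence intervals, ran from 14.2 to 25.9 M implied reads (M, megareads). Nkx2-2 itself had 1.00, 1.03 and 1.27 FPKM in controls against 0.748, 0.744 and 0.666 FPKM in mutants, an incomplete check of the labels, since the TN allele may still be transcribed. Pancreatic acinar markers differed widely between libraries, with sums of 26.8, 412 and 10322 FPKM over the 3 controls against 2693, 2829 and 11780 FPKM over the 3 mutants. Xist, transcribed from the inactive X chromosome of females, was at 34.0 FPKM in control 3 and 23.2 FPKM in mutant 3, and at or below 0.0642 FPKM in the other 4 libraries. The labels give no sex.

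As background, an enterocyte takes up amino acids and peptides across its brush border with carriers driven by sodium, protons or exchange. It releases amino acids to the blood through other exchangers and uniporters in the basolateral membrane. Several exchangers of the SLC7 family work only as pairs with a single-pass SLC3 chain, Slc3a1 at the brush border and Slc3a2 at the basolateral side. The absorptive enterocytes of the upper small intestine are known for high levels of both sets.

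A few carriers made up most of the transporter RNA in control duodenum. The 66 genes together held 1412 ± 39.3 FPKM in controls and 1458 ± 21.8 FPKM in mutants (SD, n = 3 each). The 3 most abundant held 40.1% of the control sum, the first 6 held 61.3%, the first 10 held 79.98% and the first 15 held 90.1%. By mean level in controls, 4 genes were at or above 100 FPKM, 6 between 50 and 100, 10 between 10 and 50, 16 between 1 and 10, 18 between 0.1 and 1, and 12 below 0.1. The same 15 genes led in mutants, and the first 3 kept their order. Slc6a8, the first, was number 426 among all rows in the controls.

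**Figure D1:**
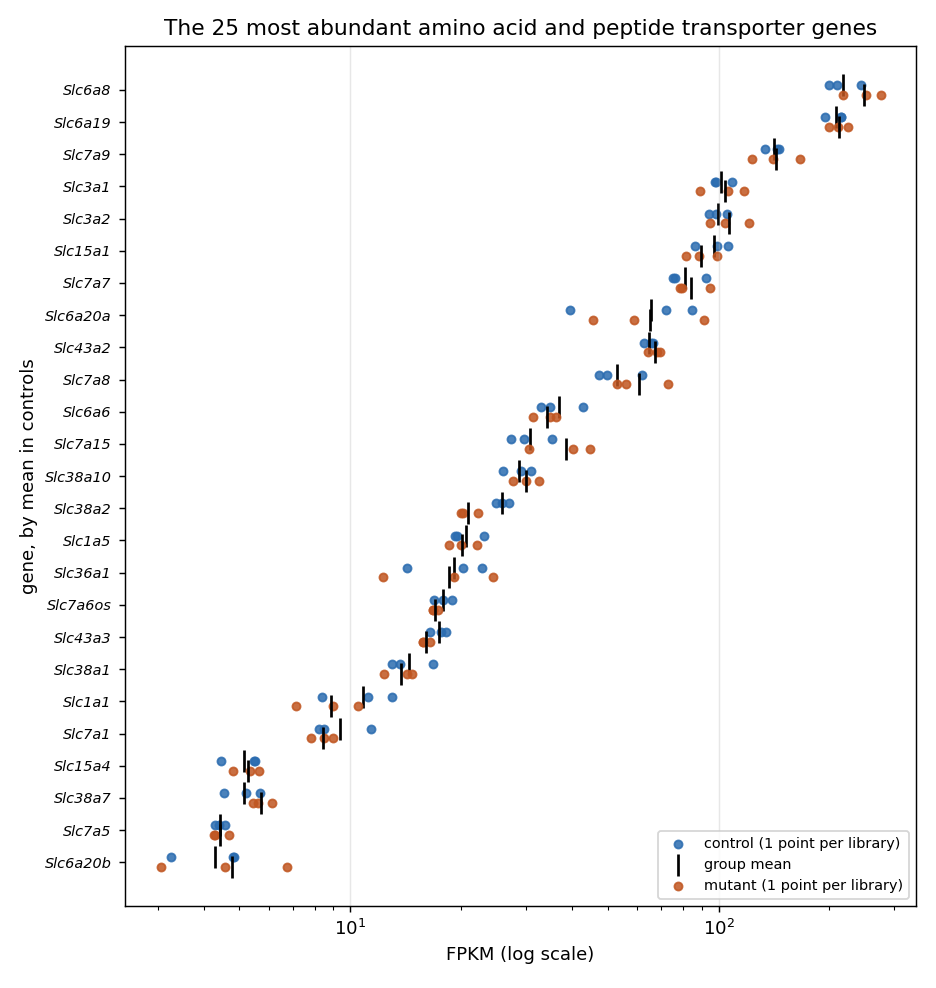
FPKM (log scale) of the 25 most abundant transporter genes, ordered by control mean, with 1 point per library (blue control, orange mutant) and a black bar at each group's mean. The points of the 2 groups overlap for every gene shown except Slc38a2, whose 3 mutants lie between 20.02 and 22.2 FPKM and whose 3 controls lie between 24.9 and 26.9 FPKM.

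Across the list, no transporter gene passed the test between mutants and controls. The test was limma, a linear model fitted over all rows, on log2(FPKM + 0.1), with Benjamini-Hochberg adjustment. Of the 66 genes 54 had a mean of at least 0.1 FPKM and were tested. None of the 54 had an adjusted p under 0.05 in limma, where the same held for 0% of all 15864 rows, with smallest adjusted p-values of 0.79 among the transporters and 0.25 among all rows. At an unadjusted p under 0.05, 0 of 54 were higher in mutants, beside 1.49% of all rows. Lower were 3 of 54, or 5.56%, beside 4.32% of all rows, namely Slc38a2, Slc38a4 and Slc38a11. These shares are near those of all rows. With trimmed mean scaling the counts were 0 higher and 1 lower, and 553 of all rows were then higher and 364 lower, where 237 and 685 were without scaling.

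Counts of separated groups gave a like picture. No transporter gene had all mutants above all controls, beside 3.13% of all rows. All mutants were below all controls in 5, or 9.26%, beside 9.92% of all rows: Slc38a2, Slc38a4, Slc1a2, Slc7a11 and Slc7a14. The median log2 fold change of the 54 was −0.04, with quartiles of −0.23 and 0.07, and that of all tested rows was −0.05. Fold changes were positive in 22 and negative in 32, beside 6142 positive and 9722 negative among all 15864 tested rows.

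Brush border uptake genes held the largest share of the sum. The 11 genes of this class added up to 703, 743 and 670 FPKM in control 1, 2 and 3 and to 699, 730 and 673 FPKM in mutant 1, 2 and 3, so the groups overlapped. Of its 10 tested members none passed an adjusted p of 0.05 in limma (Benjamini-Hochberg over all rows), and 5 fold changes were positive and 5 negative.

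Slc6a19 encodes B0AT1, the sodium-driven carrier of neutral amino acids. It was measured at 195, 215 and 215 FPKM in controls against 211, 224 and 200 FPKM in mutants (mm9 chromosome 13, 73818605 to 73838143, minus strand). All 6 values lay within a narrow band, with a log2 fold change, mutant minus control, of 0.03 (95% interval −0.17 to 0.22). Tmem27, a partner of this carrier in the kidney, was low at 0.550 FPKM in controls and 0.579 FPKM in mutants. The file's row for 5430425J12Rik overlaps Slc6a19, and the counting is not stated to use strand, so reads of the 2 rows cannot be told apart where they overlap.

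Slc7a9 and Slc3a1 encode the light and heavy chains of the exchanger that takes up cystine and cationic amino acids. Slc7a9 was at 144, 146 and 134 FPKM in controls against 123, 141 and 166 FPKM in mutants, and Slc3a1 was at 97.7, 109 and 98.1 FPKM in controls against 117, 106 and 88.8 FPKM in mutants. For both genes the mutants spread to either side of the controls. Log2 fold changes were 0.01 for Slc7a9 (95% interval −0.26 to 0.29) and 0.03 for Slc3a1 (−0.24 to 0.29). The ratio of light to heavy chain was 1.47, 1.34 and 1.36 in controls and 1.05, 1.33 and 1.87 in mutants. Mutant 1 had the lowest ratio and mutant 3 the highest, and the controls lay between them. Slc3a1 lies on chromosome 17 (85427687 to 85463581, plus strand), where the row of Prepl overlaps it, and Slc7a9 lies on chromosome 7 (36234111 to 36251053, plus strand).

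The start regions of these partner genes are shown because the chains work as a pair. Both are RefSeq sequences of build GRCm38.p6, from 250 bases before the start to 50 after it, 5′ to 3′ on the plus strand. The Slc7a9 sequence is chr7:35448842-35449141, the first of 2 entries for the gene, and the Slc3a1 sequence is chr17:85028097-85028396. Capitals mark matches to any of 7 searched motifs.
Slc7a9: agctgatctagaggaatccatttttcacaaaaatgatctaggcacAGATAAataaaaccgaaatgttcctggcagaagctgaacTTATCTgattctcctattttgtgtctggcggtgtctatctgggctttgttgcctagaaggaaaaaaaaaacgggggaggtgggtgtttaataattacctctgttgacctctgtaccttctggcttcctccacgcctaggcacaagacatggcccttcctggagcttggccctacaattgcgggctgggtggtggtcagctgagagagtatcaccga
Slc3a1: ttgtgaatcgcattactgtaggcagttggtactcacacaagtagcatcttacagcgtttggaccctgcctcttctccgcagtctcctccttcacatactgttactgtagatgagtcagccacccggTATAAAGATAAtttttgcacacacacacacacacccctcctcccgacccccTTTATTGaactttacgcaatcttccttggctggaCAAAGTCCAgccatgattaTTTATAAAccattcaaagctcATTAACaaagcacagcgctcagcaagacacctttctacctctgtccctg
Slc7a9 held 2 Gata matches, at −205 to −200 and at −166 to −161 from the start. Slc3a1 held 1 HNF4 match at −39 to −31, 1 CDX match at −73 to −67 and 1 Gata match at −119 to −114. It also held 1 short HNF1 match at 1 to 6, and 3 matches to the TATA box letters. Some of these 3 overlap each other or the Gata match. HNF4, HNF1, CDX and Gata factors are known regulators of absorptive epithelium.

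The search covered both strands, and 47 of the 66 genes had a start region of this length, beside 32851 regions of all genes. Each of the 47 genes was counted once, by its first region, while the 32851 include every region of a gene. The HNF4 letters CAAAGTCCA were found in 1 of the 47 (2.13%), Slc3a1, and in 0.475% of all regions. For the short core of HNF1 sites, searched as GTTAAT, the numbers were 4 genes (8.51%) and 7.10% of all regions. CDX proteins were searched with the letters TTTATNG, present in 2 genes (4.26%) and in 10.9% of all regions. The letters AGATAA, bound by factors of the Gata family, occurred in 3 genes (6.38%) and in 11.2% of all regions. NKX2-2 itself has a core site, searched as TNAAGTG. That core was found in Slc15a4, Slc7a6 and Slc7a7, so in 3 genes (6.38%), and in 11.5% of all regions. The site shared by C/EBP and ATF proteins in the shortage response, TGATGNAA, was present in 4 genes (8.51%) and in 3.97% of all regions. Finally, TATAAA, the letters of the TATA box of some promoters, was present in 4 genes (8.51%) and in 13.6% of all regions. These matches describe letters in the window and nothing of the factors.

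Peptide uptake was represented by Slc15a1, the proton-driven carrier PepT1 of dipeptides and tripeptides. It was at 98.8, 106 and 86.3 FPKM in controls against 99.3, 81.6 and 88.7 FPKM in mutants (chromosome 14, 121858843 to 121904476, minus strand). The groups overlapped, with a log2 fold change of −0.11 (95% interval −0.37 to 0.15). Its relative Slc15a2, or PepT2, differed most between libraries of all transporter genes that had no library at 0, with 2.14, 0.202 and 1.23 FPKM in controls and 0.0472, 0.734 and 2.38 FPKM in mutants. The highest library was 50.4-fold above the lowest, and both extremes were mutants. Implied reads behind Slc15a2 ran from 2.78 to 178.

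Slc6a20a, the proline carrier SIT1, had the widest spread among the 10 most abundant genes. It was at 72.0, 84.6 and 39.6 FPKM in controls against 58.8, 91.5 and 45.5 FPKM in mutants (chromosome 9, 123546025 to 123587950, minus strand). Replicate 3 was the lowest in both groups and replicate 2 the highest, and the fold change had a wide interval (log2 0.01, 95% interval −0.81 to 0.82). The neighbouring copy Slc6a20b (123502938 to 123541683, minus strand) was at 4.82, 4.81 and 3.26 FPKM in controls against 4.56, 6.71 and 3.05 FPKM in mutants. Replicate 3 was again the lowest in each group. Slc6a20a stood 14.9 ± 2.72 times above Slc6a20b in controls and 13.8 ± 1.01 times in mutants. The authors' deposited table, in read counts divided by size factors and not by length, gives 1913 for Slc6a20a and 17.4 for Slc6a20b in controls, and 1894 and 16.1 in mutants. Implied reads behind the FPKM of Slc6a20b ran from 197 to 532, far above the counts of that table, and the cause of the gap was not tested.

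The coding sequences of these copies are alike enough for reads to be shared. Over 1779 aligned bases they were 91.5% identical (GENCODE M1, mm9), and the longest identical run was 321 bases, coding bases 874 to 1194 of Slc6a20a and 1003 to 1323 of Slc6a20b. A stretch of 120 coding bases that spans the end of that run is printed to show how reads can be assigned, 5′ to 3′, with the 14 bases that differ in capitals.
Slc6a20a coding bases 1155 to 1274: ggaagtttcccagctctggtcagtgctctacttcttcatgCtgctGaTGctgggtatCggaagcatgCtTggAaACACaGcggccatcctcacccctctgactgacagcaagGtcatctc
Slc6a20b coding bases 1284 to 1403: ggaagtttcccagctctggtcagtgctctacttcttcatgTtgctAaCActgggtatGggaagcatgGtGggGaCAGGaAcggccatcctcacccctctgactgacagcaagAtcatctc
The run covers 18.0% of the Slc6a20a coding sequence, and how the authors' pipeline split reads within it is not stated in the labels or files. The levels of both genes are therefore uncertain.

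Other brush border members were at lower levels. Slc6a6, the taurine carrier, was at 34.9, 33.0 and 42.9 FPKM in controls against 31.4, 36.2 and 35.0 FPKM in mutants (log2 −0.10, 95% interval −0.38 to 0.17). Slc1a5, the exchanger ASCT2 of glutamine and other neutral amino acids, was at 23.1, 19.5 and 19.3 FPKM in controls against 18.5, 22.0 and 19.9 FPKM in mutants (log2 −0.03, −0.28 to 0.22). In both the groups overlapped.

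Slc36a1, the proton-driven carrier PAT1 of small amino acids, was at 20.2, 14.3 and 22.8 FPKM in controls against 24.3, 12.3 and 19.1 FPKM in mutants, with replicate 2 lowest in each group. Slc1a1, the glutamate and aspartate carrier, was at 13.0, 11.2 and 8.37 FPKM in controls against 10.5, 8.96 and 7.12 FPKM in mutants. The values of Slc1a1 overlapped between groups (log2 −0.28, 95% interval −0.75 to 0.19). Slc6a14, a carrier of broad specificity better known from colon and lung, did not exceed 0.0469 FPKM in any library.

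Basolateral exit genes added up to 295, 290 and 335 FPKM in controls and to 314, 302 and 365 FPKM in mutants over 7 genes, with replicate 3 highest in each group. None of the 7 passed in limma, and 5 fold changes were positive and 2 negative, where all tested rows had 6142 and 9722. Slc3a2, the heavy chain 4F2hc, was at 98.4, 94.3 and 106 FPKM in controls against 104, 95.04 and 121 FPKM in mutants (log2 0.10, 95% interval −0.15 to 0.34). Its values overlapped between groups.

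Among the light chains that pair with Slc3a2, Slc7a7, or y+LAT1, which lets cationic amino acids out, was at 76.1, 75.1 and 92.7 FPKM in controls against 79.7, 78.5 and 94.8 FPKM in mutants (log2 0.05, 95% interval −0.22 to 0.33). The value in mutant 2 is marked in the file as a failed estimate and was kept; without that library the log2 fold change was 0.10. Slc7a7 also overlaps the row of Oxa1l. Slc7a8, or LAT2, an exchanger of neutral amino acids, was at 49.8, 47.2 and 61.9 FPKM in controls against 53.2, 56.2 and 73.0 FPKM in mutants. The values of Slc7a8 overlapped between groups (log2 0.19, 95% interval −0.17 to 0.55).

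Light chains stood in a like proportion to Slc3a2 in both groups, with overlapping ranges. The sum of Slc7a5, Slc7a6, Slc7a7, Slc7a8 and Slc7a11 was 1.43 ± 0.1003 times Slc3a2 in controls and 1.43 ± 0.0794 times in mutants. Slc7a7 alone was at 0.816 ± 0.0549 and 0.790 ± 0.0322 of Slc3a2, and Slc7a8 at 0.531 ± 0.0479 and 0.568 ± 0.0508.

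Slc43a2, the uniporter LAT4 of large neutral amino acids, varied least in controls among the 10 most abundant genes. It was at 62.6, 65.4 and 66.2 FPKM in controls against 69.3, 64.3 and 68.1 FPKM in mutants (log2 0.05, 95% interval −0.10 to 0.21), and the groups overlapped. The remaining 3 members, Slc7a5, Slc7a6 and Slc43a1, had control means of 4.42, 2.59 and 0.900 FPKM and mutant means of 4.42, 2.81 and 0.698 FPKM. Slc16a10, the aromatic amino acid exit carrier TAT1 of another family, was at 27.0, 34.2 and 31.6 FPKM in controls against 34.0, 32.9 and 33.4 FPKM in mutants.

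The ranking held up against the replicate spread at some steps only. In controls the ranges of Slc6a8 and Slc6a19 overlapped, those of Slc6a19, Slc7a9 and Slc3a1 were separate, and those of neighbours from Slc3a1 to Slc43a2 overlapped. Slc43a2, Slc7a8 and Slc6a6 were separate from each other, as were Slc38a2 and Slc1a5.

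Slc6a8, the creatine carrier, led the class of neurotransmitter, osmolyte and creatine carriers and the whole list. It was at 199, 244 and 210 FPKM in controls against 275, 251 and 217 FPKM in mutants (X chromosome, 70918472 to 70927839, plus strand). Mutant 1 and mutant 2 were above each control and mutant 3 was not, with a log2 fold change of 0.19 (95% interval −0.10 to 0.47). This 1 gene accounted for nearly all of the class sum, which was 207, 251 and 220 FPKM in controls and 281, 259 and 225 FPKM in mutants over 17 genes. The next in the class were Slc1a3, the glial glutamate carrier GLAST, at 2.60 FPKM in controls and 2.15 FPKM in mutants, and Slc6a9, the glycine carrier GlyT1, at 2.52 and 2.20 FPKM. Of the 11 tested members 9 had negative and 2 positive fold changes, where all tested rows had 9722 and 6142. None of the 11 passed in limma.

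**Figure D2:**
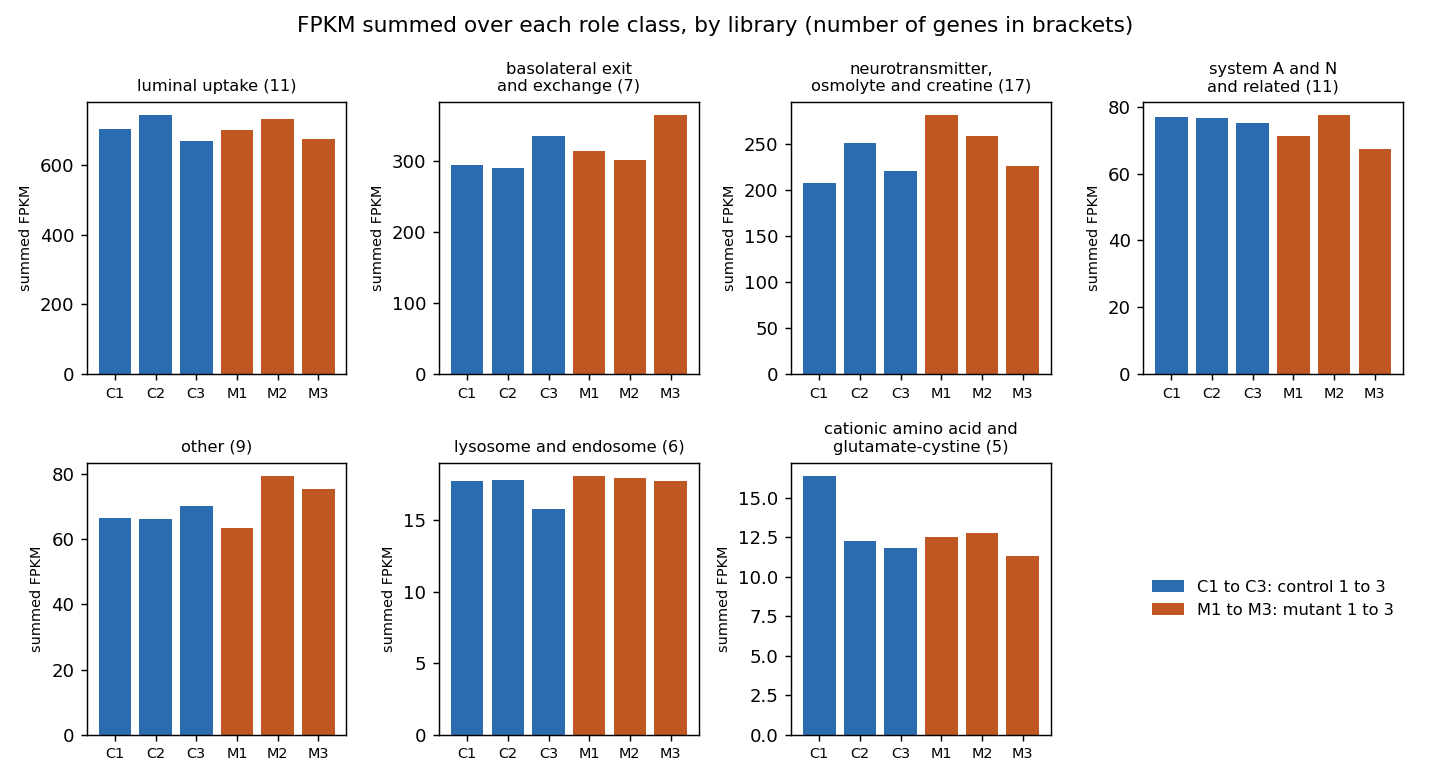
FPKM summed over each role class in each library (bars from 0, blue control, orange mutant, 1 bar per library, number of genes in brackets). Control and mutant bars overlap in range for luminal uptake, at 670 to 743 and 673 to 730, and for basolateral exit, at 290 to 335 and 302 to 365, where replicate 3 is highest in both groups.

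The class of system A and system N carriers held the 1 transporter gene whose groups separated at more than 1 FPKM. Slc38a2 encodes SNAT2, a sodium-driven carrier of small neutral amino acids known to be induced when amino acids are scarce. It was at 26.9, 25.9 and 24.9 FPKM in controls against 20.02, 22.2 and 20.3 FPKM in mutants (chromosome 15, 96517823 to 96530129, minus strand). Each mutant was below each control. The log2 fold change was −0.31 (SE 0.07, 95% interval −0.49 to −0.14), with an unadjusted p of 0.0038 and an adjusted p of 0.79 over all rows in limma, so it did not pass. The authors' deposited table gives Slc38a2 a fold of 0.833, a log2 fold change of −0.26, an unadjusted p of 0.055 and an adjusted p of 1. Its implied reads ran from 1482 to 2527 per library.

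In RNA from whole wall, fewer cells of a type and less RNA per cell cannot be told apart. Smooth muscle markers were also lower in mutants, with sums of 738, 872 and 1002 FPKM in controls and of 647, 557 and 717 FPKM in mutants over 10 genes. Of these 10, 8 had all mutants below all controls and 9 had an unadjusted p under 0.05, with a median log2 fold change of −0.44. Enteric neuron and glia markers added up to between 15.5 and 17.2 FPKM in controls and between 13.7 and 14.6 FPKM in mutants. The part of either cell type in the value of Slc38a2 was not tested. The enterocyte list was centred at a log2 fold change of 0.09 (median), with no member at an unadjusted p under 0.05. T cell markers had sums of 305, 374 and 310 FPKM in controls and of 375, 375 and 451 FPKM in mutants, with each mutant sum above each control sum, if narrowly for mutants 1 and 2. Of these 8 genes 7 had a positive fold change, beside 6142 of all 15864 tested rows, with a median log2 of 0.28. The part of T cells was not tested either.

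The start region of Slc38a2 is given because it is the member with the lowest p. It is RefSeq, GRCm38.p6, minus strand, chr15:96699679-96699978, written 5′ to 3′ along the gene. It holds none of the 7 searched motifs, so it has no capitals, and sequence outside this window was not searched.
Slc38a2: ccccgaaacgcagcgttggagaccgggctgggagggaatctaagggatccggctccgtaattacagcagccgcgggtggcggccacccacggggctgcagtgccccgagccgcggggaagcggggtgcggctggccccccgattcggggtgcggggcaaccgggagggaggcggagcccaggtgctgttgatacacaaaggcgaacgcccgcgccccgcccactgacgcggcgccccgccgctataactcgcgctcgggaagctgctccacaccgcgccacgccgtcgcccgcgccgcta

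The other members of the class did not separate above 1 FPKM. Slc38a10, a related carrier, was at 29.0, 30.9 and 26.0 FPKM in controls against 29.95, 32.6 and 27.6 FPKM in mutants (log2 0.07, 95% interval −0.16 to 0.30), with overlap and with replicate 3 lowest in each group. Slc38a1, or SNAT1, had means of 14.5 ± 2.02 FPKM in controls and 13.8 ± 1.24 FPKM in mutants. Slc38a1, Slc38a2 and Slc38a4 lie near each other on chromosome 15, in the span from 96401849 to 96886387. Of these neighbours, Slc38a2 and Slc38a4 had all mutants below all controls and Slc38a1 did not.

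Slc38a4, or SNAT4, was at 0.515, 0.331 and 0.298 FPKM in controls against 0.289, 0.167 and 0.123 FPKM in mutants, from 10 to 27 implied reads. Its groups were separate by a small gap, with a log2 fold change of −0.73 and an unadjusted p of 0.050 in limma. Slc38a11, a little studied member, was at 0.559, 0.644 and 0.289 FPKM in controls against 0.0428, 0.361 and 0.164 FPKM in mutants, from 1 to 19 implied reads. Its groups overlapped, with a log2 fold change of −1.15 and an unadjusted p of 0.046. Fold changes near the pseudocount of 0.1 FPKM are understated on this scale.

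Lysosomal and endosomal carriers added up to between 15.8 and 17.8 FPKM in controls and between 17.7 and 18.1 FPKM in mutants over 6 genes. Slc15a4, a carrier of histidine and peptides, had means of 5.15 and 5.27 FPKM. Slc38a7 had 5.13 and 5.72 FPKM, and Slc38a9, an arginine sensor of the mTORC1 pathway, had 1.37 ± 0.0417 and 1.34 ± 0.113 FPKM. Slc7a14, a lysosomal relative of the cationic carriers, was at 0.225, 0.201 and 0.222 FPKM in controls against 0.136, 0.162 and 0.170 FPKM in mutants. Its mutants were all below its controls, with a log2 fold change of −0.31 (95% interval −0.84 to 0.23).

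Cationic amino acid carriers of the plasma membrane were led by Slc7a1, or CAT1, at 9.36 ± 1.77 FPKM in controls and 8.42 ± 0.558 FPKM in mutants. Slc7a11, the cystine and glutamate exchanger xCT, was at 0.776, 0.887 and 0.827 FPKM in controls against 0.764, 0.774 and 0.605 FPKM in mutants. Its mutants were all below its controls by a narrow gap, with a log2 fold change of −0.20 (95% interval −0.60 to 0.20). All 5 genes of the class had a negative fold change, as did 9722 of all 15864 tested rows, and none of the 5 passed.

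Slc1a2, the glial glutamate carrier GLT-1, was the last gene whose groups separated, at 0.549, 0.501 and 0.901 FPKM in controls and 0.414, 0.331 and 0.433 FPKM in mutants. Control 3 was well above the rest, and the log2 fold change was −0.57 (95% interval −1.17 to 0.02). Implied reads ran from 15.6 to 37.6. Outside these classes, Slc7a15, an aromatic amino acid transporter gene of the mouse, was at 27.3, 29.5 and 35.3 FPKM in controls against 30.5, 44.8 and 40.2 FPKM in mutants. The values of Slc7a15 overlapped between groups (log2 0.31, 95% interval −0.07 to 0.70).

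**Figure D3:**
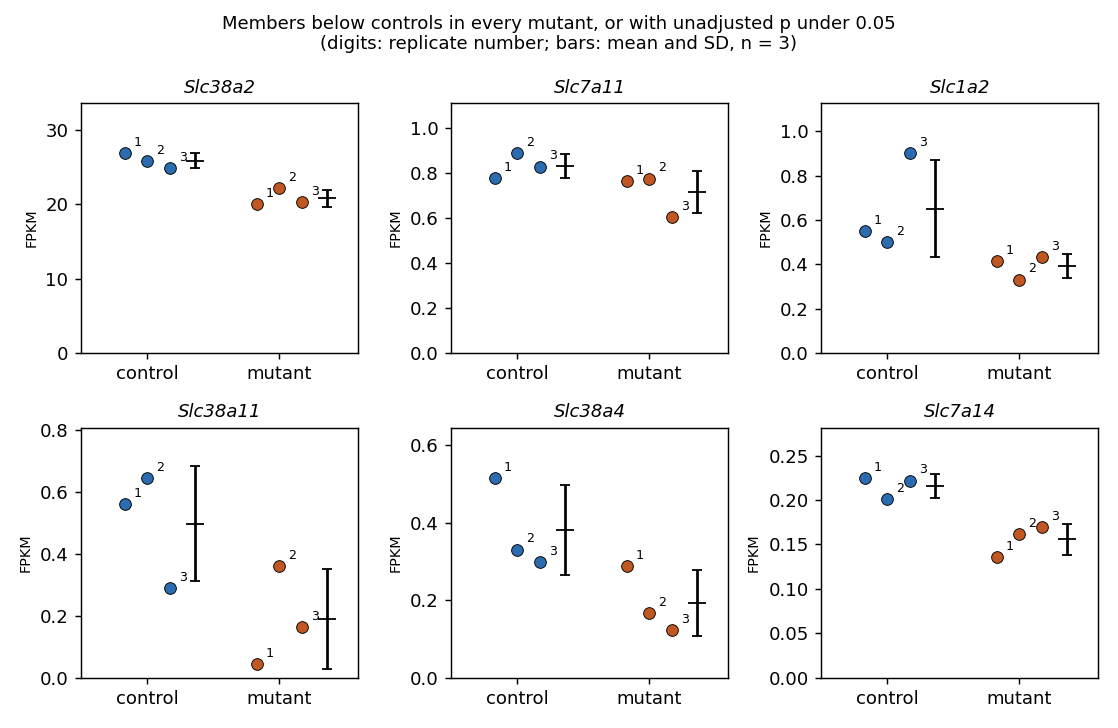
FPKM in each library (points with replicate number, axes from 0) with mean and SD (n = 3) for the 5 transporter genes whose 3 mutants all lay below the 3 controls and for Slc38a11, the remaining gene with an unadjusted p under 0.05. Slc38a2, at 20.02 to 26.9 FPKM, is the 1 gene of the 6 above 1 FPKM.

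With the replicate number as a block, no transporter gene passed with a smallest adjusted p of 0.61 in limma. At an unadjusted p under 0.05, 3 were then higher (Slc6a12, Slc7a15 and Slc7a8), or 5.56%, beside 2.81% of all rows. Lower were 6 (Slc1a1, Slc1a2, Slc38a11, Slc38a2, Slc38a4 and Slc6a17), or 11.1%, beside 5.09% of all rows. Under the block both shares were above those of all rows. The number was used as a block because libraries with the same number correlated in these data, and the labels name no litter or day. Replicate 3 of each group was also the library with Xist and the highest acinar sum.

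In the authors' deposited table, made with DESeq, 65 of the 66 genes have a p-value. Of these, 0 are higher and 0 lower at an unadjusted p under 0.05, where 0.696% and 0.917% of all 18541 rows with a p-value are. None passes an adjusted p of 0.05 in the authors' deposited table, which 0.0378% of those rows, or 7, do.

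**Figure D4:**
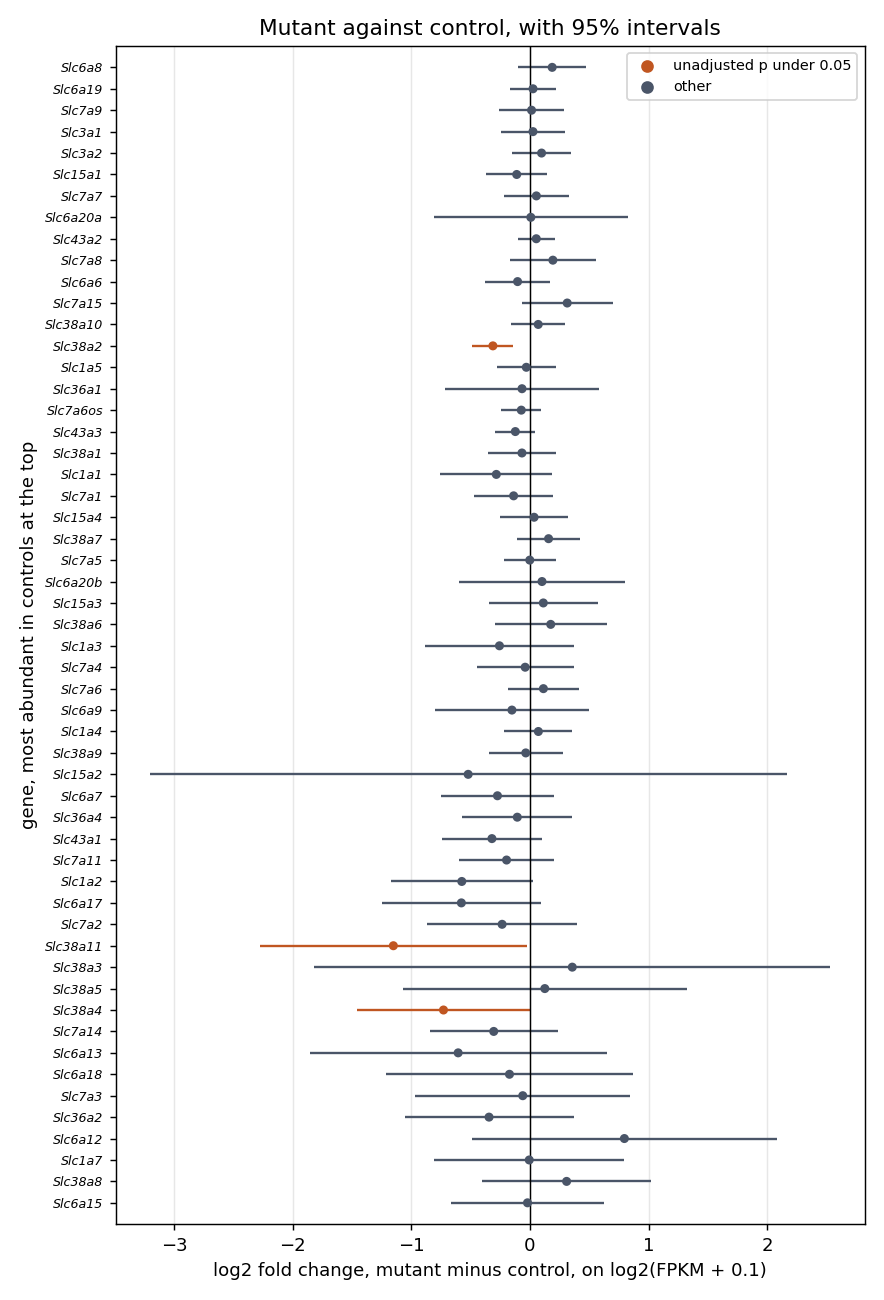
Log2 fold change on log2(FPKM + 0.1), mutant minus control, with its 95% interval from limma for the 54 tested transporter genes, the most abundant at the top. Intervals of the 6 most abundant lie between −0.37 and 0.47, that of Slc38a2 lies below 0, and those of genes under 1 FPKM are wide.

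The 12 genes below the filter included Slc6a11, Slc6a3, Slc36a3, Slc1a6, Slc6a14, Slc7a10, Slc15a5, Slc6a2, Slc6a5, Slc7a12 and Slc7a13. Among these, Slc6a3, Slc6a2 and Slc6a5 carry dopamine, noradrenaline and glycine and are known from nerve cells. Slc7a12 and Slc7a13 were listed at 0 in all 6 libraries, and no library of the 12 genes exceeded 0.179 FPKM.

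The 2 libraries with Xist, control 3 and mutant 3, were set against the other 4 after Xist was seen to divide the libraries, so the counts below are a description of a split chosen from the data. These were also the libraries with the highest acinar sums, and control 3 alone lacked Rosa26Tomato, so sex and pancreatic tissue cannot be told apart here. Both lay above the other 4 in 9 of 54 tested genes, or 16.7%, beside 7.46% of all rows. Some gaps were narrow, with the lower of the pair at 2.48 FPKM against at most 2.47 FPKM in Slc6a9. The 9 were Slc38a3, Slc6a18, Slc38a5, Slc7a7, Slc1a7, Slc7a8, Slc7a6, Slc3a2 and Slc6a9. They include the basolateral heavy chain Slc3a2 and its light chains Slc7a6, Slc7a7 and Slc7a8. The light chains Slc7a5 and Slc7a11 did not separate in this way. For Slc3a2 the gap was narrow too, at 105.6 FPKM against at most 104.4 FPKM.

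The size of these differences was modest in the abundant genes. Slc7a7 was at 92.7 and 94.8 FPKM in the libraries with Xist and at 75.1 to 79.7 FPKM in the others. Slc7a8 was at 61.9 and 73.0 FPKM against 47.2 to 56.2 FPKM, and Slc3a2 at 106 and 121 FPKM against 94.3 to 104 FPKM. Both lay below the other 4 in 8 genes, or 14.8%, beside 15.8% of all rows. Slc6a20a was among these, at 39.6 and 45.5 FPKM against 58.8 to 91.5 FPKM, with Slc6a20b, Slc6a15, Slc38a6, Slc1a1, Slc38a10, Slc7a4 and Slc7a1.

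**Figure D5:**
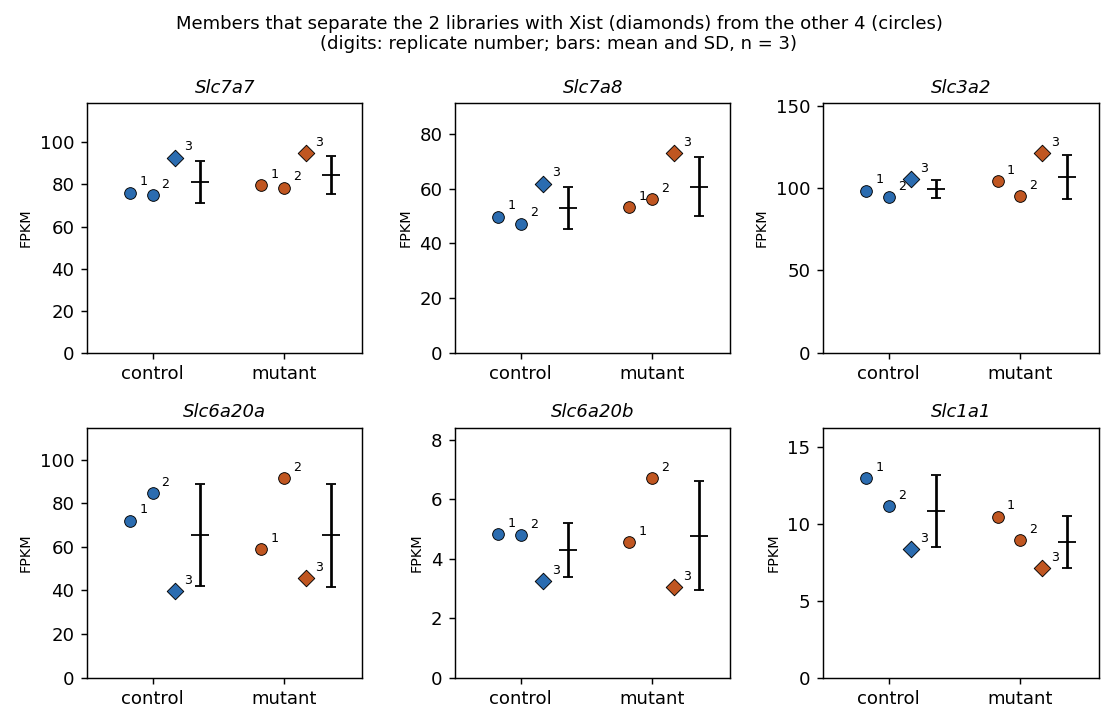
FPKM in each library (axes from 0, replicate number beside each point, mean and SD with n = 3) for 6 transporter genes in which the libraries with Xist (diamonds) lie on 1 side of the other 4 (circles). Diamonds lie above for Slc7a7, Slc7a8 and Slc3a2, at 92.7 and 94.8 FPKM for Slc7a7, and below for Slc6a20a, Slc6a20b and Slc1a1.

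RefSeq transcripts of the transporter genes were compared as well. The files hold 98 transcripts for the 66 genes, and 16 genes have several. Of 73 tested transcripts none passed an adjusted p of 0.05 in limma, beside 0.0454% of all 19827 tested, with a smallest adjusted p of 0.85. An unadjusted p under 0.05 was reached by 3, or 4.11%, beside 4.92% of all transcripts. One was the single transcript of Slc38a2. The others were NM_001164802 of Slc38a10, at most 0.856 FPKM in any library, and NM_007514 of Slc7a2, at most 0.439 FPKM. Their control means, 0.0627 and 0.0400 FPKM, are under the filter of 0.1 FPKM. Both were therefore tested only through the mutants, in which they were higher, and the filter favoured that direction.

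Shares are given for the 7 genes with 2 or more transcripts at a mean of at least 1 FPKM, where the same form led in both groups. NM_001199016 made up 87.4% of Slc7a9 in controls and 88.0% in mutants, NM_008577 made up 97.9% and 97.5% of Slc3a2, and NM_001142809 made up 99.0% and 99.5% of Slc6a8. NM_001166456 made up 77.6% and 80.4% of Slc38a1, and NM_001164799 made up 73.1% and 70.2% of Slc38a10. Slc43a2 was more mixed, with NM_173388 at 60.9% ± 7.85 in controls and 57.1% ± 14.4 in mutants. Slc7a15 was split between NM_001038660, at 58.4% and 57.4%, and NM_177802, at 41.6% and 42.6%. Below that level the leading form differed between the groups in Slc7a2 and Slc6a18, which are named after their values were seen. NM_001044740 of Slc7a2 made up 89.3% ± 18.6 in controls and 36.5% ± 37.9 in mutants. NM_001136087 of Slc6a18 made up 66.6% ± 57.7 in controls and almost nothing in mutants, in a gene that did not exceed 0.304 FPKM in any library.

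Genes that act beside these carriers were taken from 5 lists, and none of their members passed an adjusted p of 0.05 in limma. Of 12 tested partners and other amino acid carriers, 0 had an unadjusted p under 0.05. The smallest p belonged to Slc9a3r1, the brush border scaffold NHERF1, at 411, 496 and 491 FPKM in controls against 516, 533 and 564 FPKM in mutants (log2 0.21, 95% interval −0.04 to 0.46). Its mutants were all above its controls. Slc9a3, the sodium and proton exchanger NHE3, had means of 64.1 and 52.9 FPKM.

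Of 8 tested mitochondrial amino acid carriers, 2 were higher at an unadjusted p under 0.05, which 1.49% of all rows were. Slc25a29, a carrier of basic amino acids, was at 1.29, 0.971 and 1.24 FPKM in controls against 1.57, 1.52 and 1.59 FPKM in mutants (log2 0.40, unadjusted p 0.034 and adjusted p 0.79 in limma), with separate groups. Slc25a2, an ornithine carrier, was also separate, at most 0.0833 FPKM in controls and at most 0.315 FPKM in mutants (log2 0.92). Its control mean of 0.0634 FPKM is under the filter of 0.1 FPKM, so it was tested only through its mutants. The filter favoured a higher value there, and the count of 2 depends on it for this gene.

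Of 22 tested genes of amino acid use, 1 was higher at an unadjusted p under 0.05, beside the same 1.49% of all rows. Odc1, which makes putrescine from ornithine, was at 47.1, 46.3 and 50.2 FPKM in controls against 55.9, 52.7 and 56.4 FPKM in mutants (log2 0.20, unadjusted p 0.021 and adjusted p 0.79 in limma). Each mutant was above each control. Cps1, the first enzyme of the urea cycle, had all mutants below all controls, at 267, 259 and 259 FPKM in controls against 212, 258 and 220 FPKM in mutants. Gpt, an alanine aminotransferase, had means of 141 and 163 FPKM with overlap. Over the 5 lists, the 3 genes that were higher became 0 without mutant 1 and 1 without control 2, and 1 in the 4 libraries with low Xist.

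Genes of the response to amino acid shortage, 22 tested, had 0 members at an unadjusted p under 0.05 and a median log2 fold change of −0.02. This list belongs beside Slc38a2, which the same response is known to induce. Nars, an asparagine tRNA ligase, had means of 88.7 and 79.3 FPKM, and Trib3 had 4.46 and 5.16 FPKM. Chac1 had means of 0.505 and 0.682 FPKM, with all mutants above all controls. It was the 1 gene of this list with separate groups, where 3.13% of all rows were above and 9.92% below in this way. In the mTORC1 amino acid sensing list, 16 tested, 0 members reached an unadjusted p under 0.05. The smallest p belonged to Depdc5, a subunit of GATOR1, at 3.79, 3.56 and 3.40 FPKM in controls against 3.16, 3.24 and 2.47 FPKM in mutants. Its groups were separate (log2 −0.28, 95% interval −0.59 to 0.04).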

How the data were processed

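Duodenal RNA libraries of 3 control and 3 mutant mice were compared, 1 library per animal, with groups taken from the sample titles and genotypes. Per the submitters' processing notes, the authors named the mouse build mm9 and the tools CASAVA 1.8.2, TopHat, Cufflinks and DESeq. The sources used here do not give the other versions, the read length or the strand setting. As the file headers show, the deposited tables hold FPKM with a confidence interval per gene and per RefSeq transcript. The transcript tables also give coverage, a signal deposited by the authors and not used here. The authors' deposited comparison holds group means of counts divided by size factors (a signal), a fold (ratio), a log2 fold change and p-values, unadjusted and adjusted.

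From the FPKM, fold changes were fitted with limma (version 3.58.1, R 4.3.3, trended prior) on log2(FPKM + 0.1) over the 15864 rows with a mean of at least 0.1 FPKM, with no rescaling, covariate or block, and Benjamini-Hochberg adjustment at 0.05. The script was tested on simulated data. Implied reads were computed from the upper bound of the FPKM interval, taken as 2 standard errors above the value under Poisson counting, and cover counting error only. Genes named with all values were the 15 most abundant in controls, those with an unadjusted p under 0.05 and those with separate groups, with up to 3 genes of each pathway list by p. Slc36a1, Slc1a1, Slc15a2 and Slc6a20b were added after their values were seen, for abundance, spread or near identity. The genes and lists were chosen with earlier results of these data known. Values of 1 gene below the filter and of 1 gene of the partner list are not reported here.

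Deviations from the group means correlated at 0.11, 0.21 and 0.39 in libraries with the same number, each above 0.1, so the number was used as a block in 1 alternative. The labels name no litter or day, and control 1 correlated more with mutant 2 (0.13). The alternatives were pseudocounts of 0.01 and 1, filters, scaling, weights, covariates for acinar RNA and for sex as read from Xist, implied reads with voom, and leaving out each library. A fit on the 4 libraries with low Xist was added after seeing the data.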

Additional observations from a re-analysis of the deposited data

How the results depend on the processing

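No transporter gene, transcript or gene of the 5 pathway lists passed an adjusted p of 0.05 in limma in any setting, so with 3 libraries a group the intervals set what could be seen. With the replicate block 0 transporter genes passed, as without it. Slc38a2 had a log2 fold change between −0.36 and −0.26 and an unadjusted p under 0.05 in 19 of 19 alternatives. These alternatives are refits of the same libraries for the transporter gene with the lowest p, so the tally is no independent support. The authors' deposited table, made with DESeq, gives this gene an unadjusted p of 0.055. At an unadjusted p under 0.05 the lower transporter genes numbered 1 with trimmed mean scaling and 1 with quantile normalization, and the higher ones 0 in both. Leaving out 1 library gave 1 lower gene without mutant 3, 2 without control 2, mutant 1 or mutant 2, and 3 without control 1 or control 3, with 1 higher gene without control 3, mutant 1 or mutant 3. Over all rows the split of 237 higher and 685 lower was 553 and 364 after trimmed mean scaling, 361 and 430 after quantile normalization, and 445 and 807 with the replicate block. Of 20 named genes, 13 kept the sign of the fold change in every setting.

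Among the 20 named genes, signs turned only where the log2 fold change of the main fit lay from −0.10 (Slc6a6) to 0.05 (Slc7a7). The cause was not tested. Quantile normalization gave −0.036 for Slc6a19, −0.063 for Slc7a9, −0.027 for Slc3a1, −0.0066 for Slc7a7 and −0.033 for Slc6a20a. The acinar covariate gave −0.010 for Slc6a19, −0.072 for Slc7a7 and 0.058 for Slc1a5, and trimmed mean scaling gave 0.026 for Slc1a5. Library quality weights gave −0.018 for Slc7a9 and −0.087 for Slc6a20a, and the libraries with low Xist gave −0.14 for Slc7a9 and −0.089 for Slc6a20a. Implied reads with voom gave −1.49 for Slc7a7, whose failed estimate in mutant 2 leaves 175 implied reads. Without 1 library the ranges were −0.022 to 0.067 for Slc6a19, −0.099 to 0.12 for Slc7a9, −0.064 to 0.13 for Slc3a1, −0.033 to 0.15 for Slc7a7, −0.32 to 0.24 for Slc6a20a, −0.18 to 0.0087 for Slc6a6 and −0.097 to 0.054 for Slc1a5. Where the sign held they were 0.11 to 0.28 for Slc6a8, 0.0037 to 0.18 for Slc3a2, −0.19 to −0.044 for Slc15a1, 0.029 to 0.085 for Slc43a2, 0.054 to 0.31 for Slc7a8, 0.20 to 0.47 for Slc7a15, 0.0011 to 0.13 for Slc38a10, −0.36 to −0.28 for Slc38a2, −1.57 to −0.72 for Slc38a11, −0.95 to −0.54 for Slc38a4, −0.72 to −0.35 for Slc1a2, −0.25 to −0.096 for Slc7a11 and −0.35 to −0.25 for Slc7a14. The log2 ratio of the summed FPKM of all transporter genes was 0.05, and 0.10 with trimmed mean scaling and 0.0045 with quantile normalization. The 10 most abundant genes in controls were the same 10 under each alternative, with Slc6a19 first by the median or without control 2.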
